A study of Capra hircus with 12 samples.

Results

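Anagen follicles of September, taken here as late anagen, were set against those of May, taken as early anagen. The titles give anagen and the month, but no early or late stage. The September group held the 2 libraries whose titles give anagen follicles in September, 1 female and 1 male, and the May group held the 2 whose titles give anagen follicles in May, 1 female and 1 male. These 4 libraries belong to a set of 12, made from secondary hair follicles of goat skin (Capra hircus) aged 1.5 years, with 1 female and 1 male in each of 6 months. The other 8 libraries are labelled catagen (November and December) or telogen (February and March) and served to estimate the error. No treatment is given, and every group shares tissue, age and RNA extraction with RNAiso Plus, a TRIzol-type reagent. The labels do not tell if one animal gave libraries in several months, and each p-value therefore reflects how far these libraries scatter, which may be technical in part. Replicate 1 is the female and replicate 2 the male throughout.

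Cashmere goats carry primary follicles, which make guard hair, and secondary follicles, which make the fine undercoat. A follicle passes through anagen, when matrix cells around the dermal papilla divide and differentiate into the shaft and the inner root sheath, catagen, when the lower follicle regresses, and telogen, when it rests. Anagen of the cashmere follicle is long, so that months of the same phase can differ in day length and in how far the shaft has grown. Follicles lie in skin that also holds glands, vessels, the smooth arrector pili muscles and, beneath it in many mammals, a sheet of striated cutaneous muscle.

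Of 20326 genes with a value in the files, 16095 reached 1 in at least 2 of the 12 libraries and were tested. The deposited values sit under a heading of TPM (transcript abundance scaled to a fixed total), but their sums were 1058905 and 1076815 in the September female and male, against 956772 and 917211 in the May female and male, so they had been rescaled in some way and the read depth is unknown. Differences are given on the log2(value + 1) scale as September minus May, which understates the change of genes with low values. A gene was called at an adjusted p under 0.05 in limma, with Benjamini-Hochberg adjustment over all tested genes. The female and male libraries of a month differed with an SD over genes of 0.328 (log2) in September, 0.336 in May and up to 0.5585, in March.

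September and May follicles differed in few genes: 22 of 16095 (0.137%) were called. Of these, 17 were lower in September (0.106%) and 5 higher (0.0311%). The count was 12 without the May male or the September female and 11 without the September male. Among the 17, 15 belong to a list of skeletal muscle genes, and the genes higher in September include the smooth muscle actin ACTA2 and desmin (DES), the intermediate filament of muscle cells. Among the genes tested, hair keratins, root sheath genes, signalling genes of the follicle and cell division genes gave no call. The median difference of all tested genes was -0.0031, and 49.4% of the genes lay above 0. At an unadjusted p under 0.05, 1572 genes (9.77%) were past the level, 829 higher (5.15%) and 743 lower (4.62%). A log2 difference of at least 1 in either direction was seen in 275 genes (1.71%), of which 186 were higher in September, 5 of them called, and 89 lower, 17 of them called. Scaling to equal library sums moved the median of all tested genes to -0.1575, so that directions under it are relative to that shift. Both September libraries lay above both May libraries for 25.5% of the genes and below both for 26.5%.

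**Figure D1:**
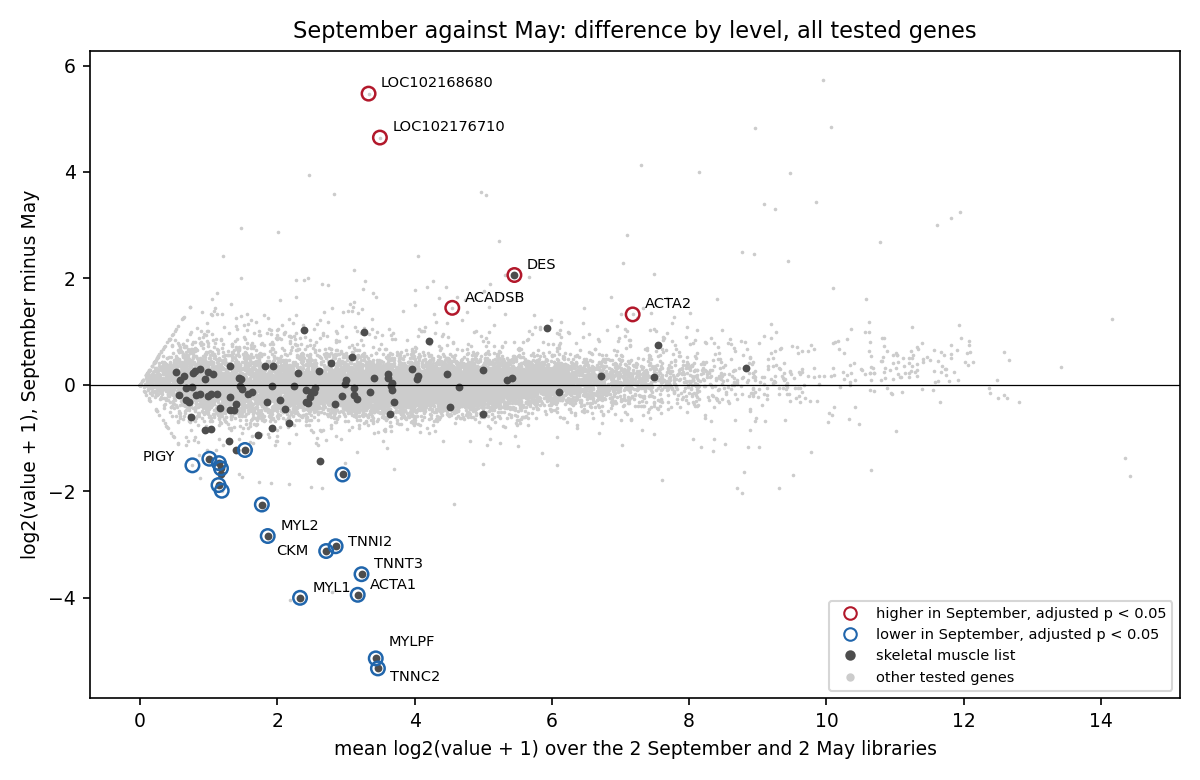
Log2(value + 1) difference of September minus May (vertical axis) against the mean log2(value + 1) of the 4 libraries (horizontal axis) for 16095 genes. Red and blue rings mark the 5 genes higher and the 17 lower in September at adjusted p under 0.05 and dark points the skeletal muscle list; the blue rings lie at low means and reach -5.33, while most other genes lie near 0.

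Of the 110 tested members of the skeletal muscle list, 15 fell in September. TNNC2, the calcium-binding troponin subunit of fast fibres, had 0.64 and 0.85 in the September female and male, against 71.4 and 67.0 in the May female and male. Its difference was -5.33 (SE 0.265, adjusted p = 1.55e-05). MYLPF, the regulatory light chain of fast myosin, had 0.87 and 0.77 in September, against 63.3 and 63.3 in May (-5.14, SE 0.262, adjusted p = 1.55e-05). Both September libraries were below both May libraries for each of the 15 genes. In bulk tissue, fewer muscle fibres and less RNA per fibre cannot be told apart.

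The other thin filament genes that fell were ACTA1, the actin of skeletal muscle, and the fast troponins T and I, TNNT3 and TNNI2. ACTA1 had 1.14 and 1.46 in September, against 36.1 and 32.8 in May (-3.95, SE 0.38, adjusted p = 0.00239). TNNT3 had 1.52 and 1.95, against 28.2 and 34.5 in May (-3.56, adjusted p = 0.00247). TNNI2 had 0.67 and 2.8, against 18.9 and 20.4 in May (-3.04, adjusted p = 0.00949), so the 2 September libraries differed from each other more than for TNNT3. The slow-fibre troponins did not pass: TNNT1 had 20.8 and 12.4 in September, against 13.7 and 16.04 in May, and the groups overlapped. TNNI1 had 6.57 and 7.45, against 7.02 and 6.79 in May, and TNNC1, shared by slow and cardiac muscle, had 3.22 and 2.34, against 9.29 and 8.91 in May (-1.43, adjusted p = 0.308). Of the 14 thin filament genes tested, 4 fell and none rose, with a median difference of -0.13. The most abundant of them, the tropomyosins TPM3 (176 and 200 in September, 171 and 166 in May) and TPM2 (84.9 and 88.6 in September, 48.7 and 34.4 in May), are also used by non-striated cells; neither passed (0.15 and 1.06, adjusted p = 0.73 and 0.164).

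In the thick filament, 3 of 12 genes fell, with a median of -0.59. MYL1, an essential light chain of fast myosin, was listed at 0 in the September female and had 0.58 in the male, against 20.6 and 17.8 in May (-4.005, SE 0.355, adjusted p = 0.00126). MYL2, the regulatory light chain of slow and cardiac muscle, had 0.26 and 0.46, against 9.31 and 8.19 in May (-2.84, adjusted p = 0.000557). MYL6B, the member with the second highest mean after MYLPF, had 16.6 and 16.3 in September, against 18.1 and 11.7 in May, and did not pass (0.17, adjusted p = 0.932). The September and May values of MYL6B overlapped, which those of MYL1 and MYL2 did not.

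Of the 26 Z-disc, titin and costamere genes tested, 3 fell and 1 rose. MYOZ1, a Z-disc protein of fast fibres, had 0.44 and 0.71 in September, against 7.79 and 5.35 in May (-2.25, adjusted p = 0.0171). TTN, the giant spring protein titin, had 0.23 and 0.26, against 2.33 and 2.2 in May (-1.39, adjusted p = 0.0314). CSRP3, the muscle LIM protein, had 0.97 and 0.81, against 3.16 and 3.69 in May (-1.23, adjusted p = 0.0227). DES ran the other way and is described with smooth muscle. The chaperone CRYAB (207 and 281 in September, 205 and 101 in May; 0.74, adjusted p = 0.471) and the ubiquitin ligase gene FBXO32 (44.2 and 43.0 in September, 41.4 and 38.3 in May; 0.13, adjusted p = 0.858) did not pass.

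Among the 23 genes of muscle energy metabolism tested, 4 fell. CKM, the creatine kinase of muscle, had 0.97 and 1.5 in September, against 19.5 and 17.3 in May (-3.13, SE 0.210, adjusted p = 0.000134). CA3, a carbonic anhydrase of slow fibres and fat, had 0.16 and 0.14, against 3.74 and 2.81 in May (-1.89, adjusted p = 0.015). ENO3, the muscle enolase, had 2.56 and 4.22, against 13.5 and 12.3 in May (-1.69, adjusted p = 0.0374), and MB, the oxygen store myoglobin, had 0.2 and 0.44, against 2.62 and 3.22 in May (-1.57, adjusted p = 0.0274). The metabolic genes with the highest means are not confined to muscle and did not pass. ALDOA had 479 and 533 in September and 429 and 389 in May (0.31, adjusted p = 0.637), LDHB had 111 and 110.0, against 99.9 and 97.8 in May (0.16, adjusted p = 0.783), and PFKM had 27.3 and 23.4, against 35.9 and 39.2 in May (-0.55, adjusted p = 0.403).

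Calcium handling gave 1 call in 18 genes: ATP2A1, the calcium pump of the fast-fibre sarcoplasmic reticulum, had 0.25 and 0.42 in September, against 3.16 and 2.29 in May (-1.47, adjusted p = 0.0215). Its inhibitor SLN was listed at 0 and at 0.6 in September, against 2.1 and 4.28 in May, and did not pass (adjusted p = 0.228). The 3 most abundant genes of this role did not pass: ASPH had 39.7 and 42.7 in September and 35.3 and 41.8 in May (0.10, adjusted p = 0.886), TRDN 8.92 and 8.49 against 9.11 and 10.3 in May (-0.14, adjusted p = 0.784), and CHRNE 8.48 and 6.24 against 6.12 and 7.54 in May (0.09, adjusted p = 0.939). Of 17 myogenic regulators and satellite cell genes tested, none passed, and their median was -0.03. The 3 most abundant were HSPB3 (65.1 and 63.9 in September, 70.3 and 71.3 in May; -0.13, adjusted p = 0.858), MEF2A (20.3 and 25.8 in September, 19.5 and 20.2 in May; 0.20, adjusted p = 0.776) and MEF2C (14.9 and 17.7 in September, 12.8 and 13.2 in May; 0.30, adjusted p = 0.625). MYOD1 and MYF6, transcription factors that define the muscle lineage, were too low to be tested, at most 0.24 in September and 0.67 in May.

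Of 169 skeletal muscle genes listed, 153 are in the files, 110 were tested and 43 fell short of the minimum value. Of the 110, 15 fell, 1 rose and 94 did not pass; 50 lay below May without overlap, against 26.5% of all genes, and 23 above, against 25.5% of all genes, and the median was -0.13. A member that passed the minimum only through its May values had to be higher in May, so these counts describe the list and do not stand for its untested members. The highest value of any untested member in the 4 libraries was 1.61, for MYOT in the May male. Of 10 marker genes that define skeletal muscle, 8 were in the files. Their summed level was 6.16 and 7.46 in September, against 152 and 153 in May, with MYF6 and MYOD1 at 0 in some libraries. The keratinocyte markers KRT5 and KRT14 together summed to 12419 and 11891 in September, against 14482 and 15373 in May. The skeletal muscle markers of May were thus a small signal beside the keratinocyte markers.

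**Figure D2:**
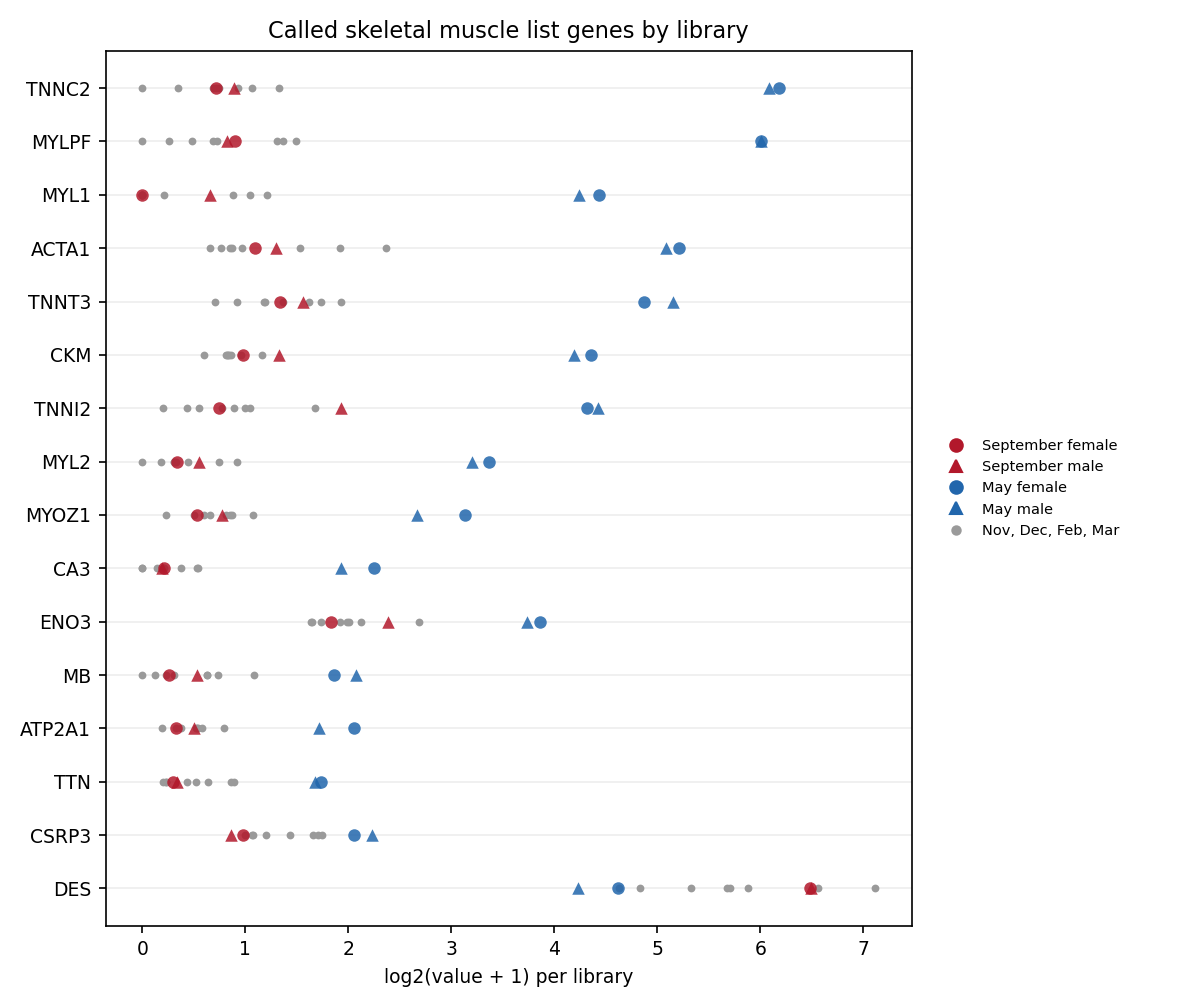
Log2(value + 1) of the 16 called genes of the skeletal muscle list (rows) in every library; red September, blue May, grey the 8 libraries of the other months, circles female and triangles male among the coloured points. For the top 15 rows the May points stand apart on the right, with September among or near the grey points (below them for CSRP3), while DES in the last row is lower in May.

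In the genes given here, May also lay above the other months sampled. They were selected for May values above those of September, and the May contrast uses the same May libraries. A high May value below is therefore in part a result of that choice. For TNNC2, the 8 libraries of November to March lay between 0 and 1.5, for MYLPF between 0 and 1.82, for ACTA1 between 0.58 and 4.15, and for CKM between 0.51 and 1.23. September values lay within these ranges except for CKM, where the September male had 1.5. Against the mean of the other 4 months, September differed by 0.08 for TNNC2 (adjusted p = 0.832) and 0.29 for CKM (adjusted p = 0.267), and May differed by 5.41 for TNNC2 (adjusted p = 2.05e-06) and 3.42 for CKM (adjusted p = 9.87e-06). Both contrasts share the other 8 libraries. Of the 110 tested genes of the skeletal muscle list, none was called in the first contrast, which called 0.261% of all genes. In the second, which called 24.7% of all genes, 41 were called, counted in either direction. DES, CRYAB, TPM2, MEF2A, MEF2C and ASPH were among those lower in May. Without the May female or the May male, fewer genes were called in the second contrast, both of the list and of all genes.

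The calls differed in how far they depended on single libraries and settings. Under all 22 alternatives TNNC2, MYLPF, ACTA1, TNNT3 and CKM kept their calls, and MYL1 and MYL2 lost theirs in 1, with an added constant of 0.1 (adjusted p = 0.13 and 0.0545). The other 8 lost theirs in 4 (TNNI2) to 14 (TTN and ENO3) of 22, without a change of direction. Without the September female or the September male 8 genes of the list were lower, and without the May female or the May male 7, against 15 with all libraries.

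Of 15 smooth muscle contractile genes, 1 was called, and it rose. This gene, ACTA2, the actin of vascular and follicle-associated smooth muscle, had 234 and 222 in September, against 103 and 79.7 in May (1.32, SE 0.155, adjusted p = 0.00932). DES had 88.6 and 88.7, against 23.6 and 17.7 in May (2.06, SE 0.227, adjusted p = 0.00603). For both genes the September libraries were close to each other and well above those of May. ACTA2 lost its call without the May male, the September female or the September male, with equal library sums and with the error taken from the 4 libraries alone (adjusted p between 0.00723 and 0.136 over all alternatives). DES lost its call without the May male, the September female or the September male (adjusted p up to 0.0826).

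All 15 smooth muscle contractile genes lay above 0, with a median of 0.81, and 13 were higher without overlap, against the 25.5% of all genes; with equal library sums 11 of 15 and with quantile normalization 13 of 15 lay above 0. Only ACTA2 was called in the list. TAGLN, a calponin-related actin-binding protein, had 361 and 367 in September, against 208 and 142 in May (1.08, adjusted p = 0.0712). CNN1, calponin, had 63.0 and 67.2, against 19.1 and 14.7 in May (1.89, adjusted p = 0.106), and the enteric-type actin ACTG2 had 100.2 and 102, against 29.6 and 19.8 in May (2.02, adjusted p = 0.161). MYH11, the smooth muscle myosin heavy chain, had 136 and 124, against 65.9 and 50.4 in May (1.16, adjusted p = 0.232). These 4 genes were higher in September without overlap but did not pass. The smooth muscle coactivator MYOCD was at 6.16 and 5.61 in September and 6.03 and 5.29 in May, and SMTN, smoothelin, at 43.7 and 41.1 in September and 47.7 and 36.8 in May; the groups overlapped for both.

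CNN1 and MYL9 were called, beside ACTA2, without the March female, without the March male and with the error taken from anagen and catagen months, CNN1 also with the error taken from the 4 libraries alone, and TAGLN without the May female. MYL9, a regulatory light chain of smooth muscle myosin, had 77.2 and 77.9 in September, against 40.4 and 31.9 in May (1.09, adjusted p = 0.147). Pericyte genes, which mark the cells around capillaries, had a median of -0.17 in 7 genes, and MCAM, with 33.2 and 26.8 in September and 18.1 and 15.9 in May, had the highest difference among them (0.78, adjusted p = 0.0813). The 4 smooth muscle markers MYH11, ACTG2, CNN1 and SMTN summed to 343 and 334 in September, against 162 and 122 in May, and in the other 8 libraries to between 157, in the March male, and 445, in the November male. ACTA2 was 0.11 from the mean of the other 4 months in September (adjusted p = 0.58) and -1.21 in May (adjusted p = 0.00154). The value for DES was 0.77 in September (adjusted p = 0.0655) and -1.29 in May (adjusted p = 0.00429). The ACTA2 values of both May libraries were the lowest of all 12, whereas DES in March, at 27.5 in the female and 23.6 in the male, came close to the May female.

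**Figure D3:**
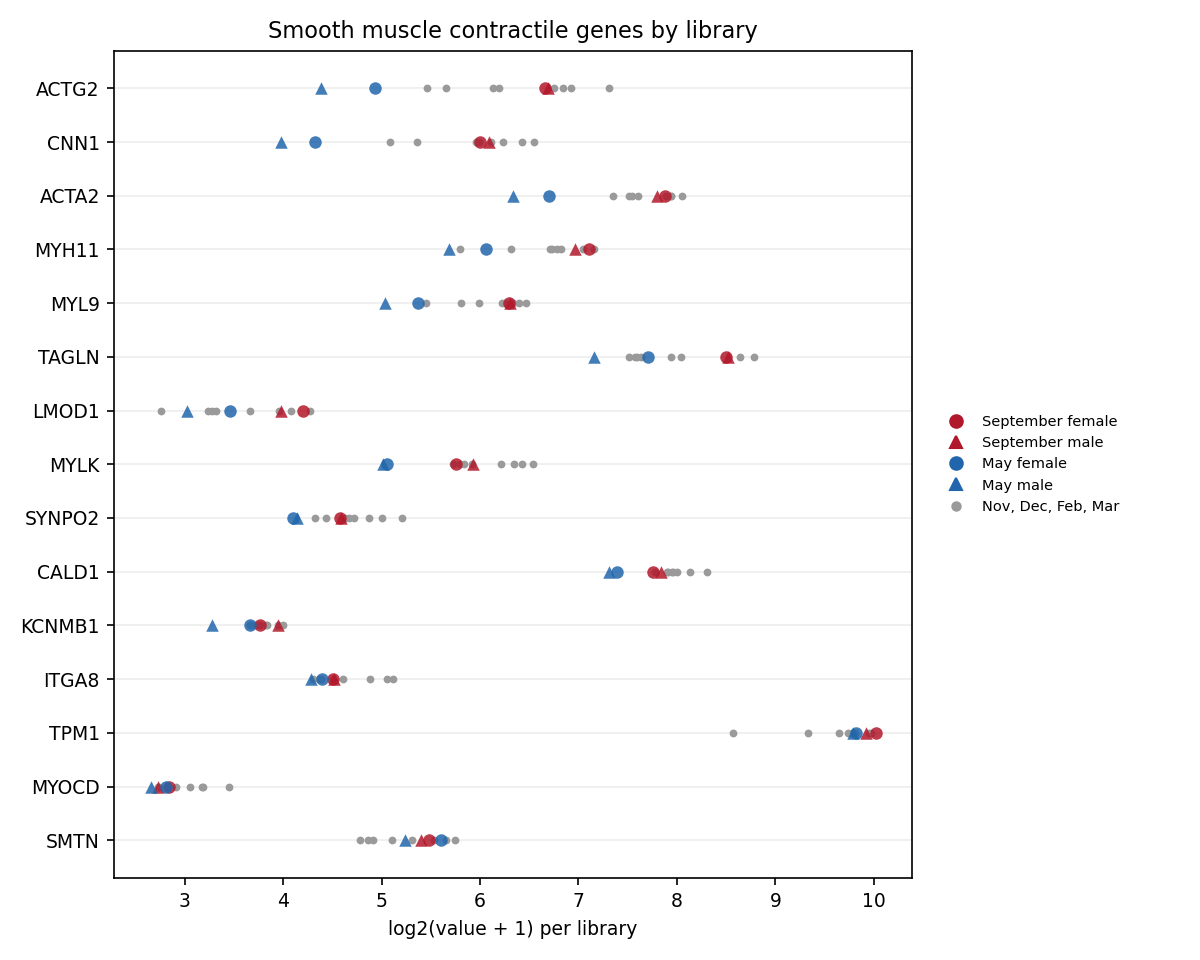
Log2(value + 1) of 15 smooth muscle contractile genes (rows, by decreasing difference) in every library; red September, blue May, grey the other 8 libraries, circles female and triangles male among the coloured points. For ACTG2, CNN1 and ACTA2 both May points lie left of all others, and for MYOCD and SMTN in the last rows red and blue overlap; with equal library sums 11 of the 15 differences stay above 0.

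Outside the skeletal muscle list, 6 of 15985 genes were called (0.0375%). Besides ACTA2 these are ACADSB, PIGY and 3 genes known by LOC numbers. ACADSB, a mitochondrial dehydrogenase of branched-chain acyl-CoA breakdown, had 32.0 and 44.2 in September, against 12.7 and 13.7 in May (1.45, SE 0.195, adjusted p = 0.0221). Both September values lay above those of every other library, which ran from 12.6 to 23.0. Set against the mean of the other 4 months, ACADSB was 1.21 higher in September (adjusted p = 0.0167) and differed by -0.24 in May (adjusted p = 0.273). Its call was lost without the May female, the May male or the September male, with equal library sums and with the error taken from the 4 libraries alone (adjusted p up to 0.228).

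LOC102168680 and LOC102176710 had the largest differences among the called genes that were higher in September. LOC102168680 had 65.4 and 66.7 in September, against 0.74 and 0.31 in May (5.47, SE 0.228, adjusted p = 6.6e-06). In November and December it had 42.6, 28.5, 95.3 and 84.7, and in February and March between 0.46 and 1.54. LOC102176710 had 56.1 and 54.8 in September, against 0.91 and 1.66 in May (4.65, SE 0.292, adjusted p = 8.67e-05), with 56.5, 56.5, 97.3 and 61.2 in November and December, and between 0.67 and 2.2 in February and March. Both genes were thus high in the 6 libraries of September to December and near 0 in the 6 of February to May. Both kept their calls under all 22 alternatives. In the RefSeq annotation of assembly ARS1.2, LOC102168680 lies on chromosome 25 next to HBM, the gene of a globin chain, and LOC102176710 on chromosome 15 among other genes with LOC numbers; neither carries a gene name in the files or that annotation. Known red cell genes, a list chosen after these values were seen, gave no call in the 5 of 9 members tested, with a median of -0.09. ALAS2, EPB42, GATA1 and HEMGN were too low to be tested. Whether these LOC genes go with red cells was not tested.

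The third, LOC102180883, fell with the muscle genes, at 0.15 and 0.14 in September, against 4.1 and 3.07 in May (-1.99, SE 0.22, adjusted p = 0.00603). It lies on chromosome 19 of ARS1.2 next to MYH8, a skeletal myosin heavy chain gene, and lost its call in 5 of 22 alternatives. PIGY, a subunit of the enzyme that starts the synthesis of lipid anchors of membrane proteins, was listed at 0 in the September female and 0.01 in the male, against 1.35 and 2.51 in May (-1.51, adjusted p = 0.0396). It was at 0 to 0.17 in the other 8 libraries and lost its call in 14 of 22 alternatives. PIGY and LOC102180883, which was at most 0.6 in the other 8 libraries, reached the minimum value through their May libraries alone, so that they could be tested only because they were higher in May.

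**Figure D4:**
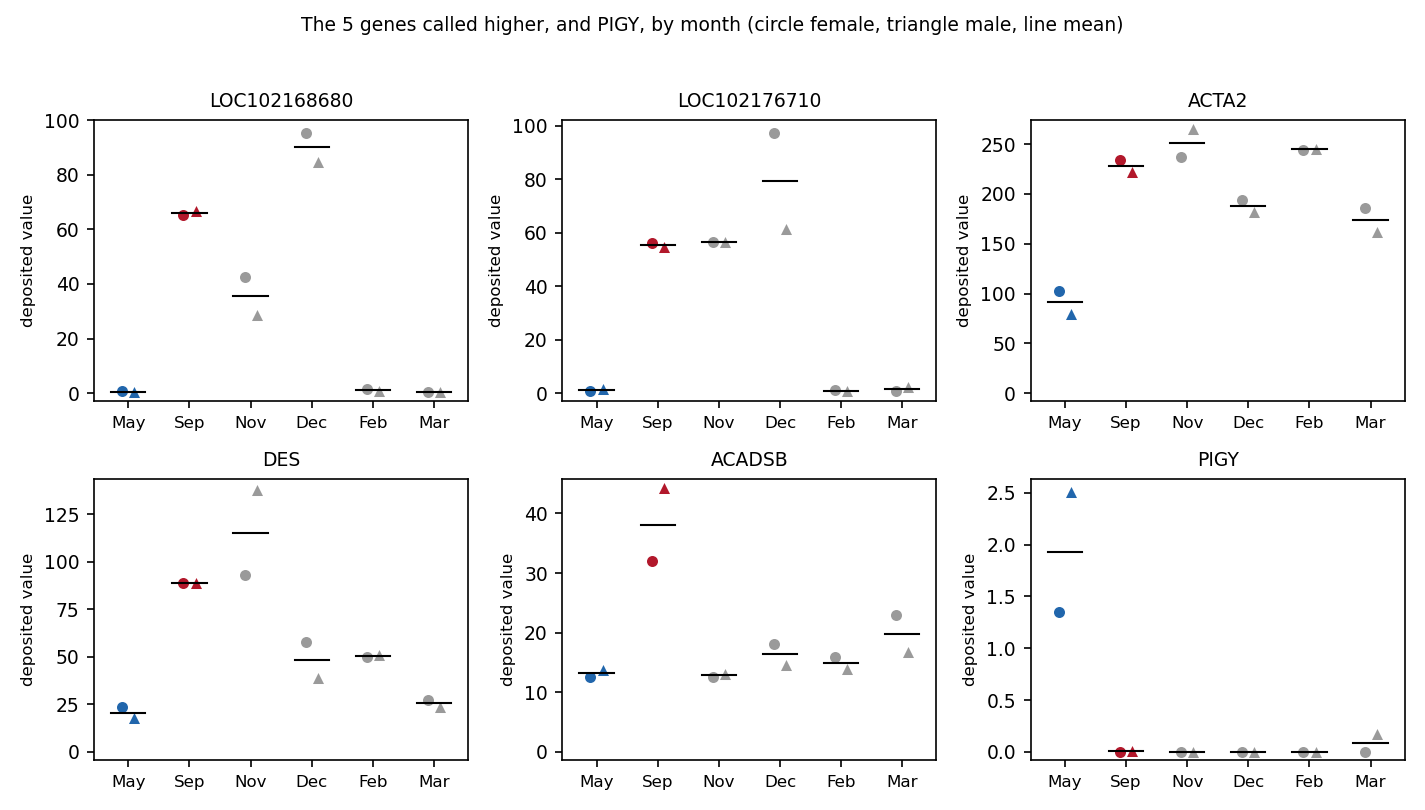
Deposited values by month, in yearly order from May to March, of LOC102168680, LOC102176710, ACTA2, DES, ACADSB and PIGY; circles female, triangles male, lines the mean of 2 libraries, blue May, red September. The 2 LOC genes are high from September to December, ACADSB has its highest values in September, and May holds the lowest ACTA2 values and the highest PIGY values.

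Fewer than 5 named genes outside the muscle list passed in either direction, so those with the smallest p that did not pass follow. Higher in September without overlap were C3, the central complement protein, with 47.1 and 73.3, against 20.0 and 13.7 in May (1.77, adjusted p = 0.0532), and APOD, a lipid-binding secreted protein of dermal cells, with 173 and 242, against 84.4 and 49.6 in May (1.64, adjusted p = 0.0601). TAGLN, described above, was the third. Lower without overlap were COL7A1, the anchoring fibril collagen below the epidermis, with 19.5 and 17.3, against 35.5 and 43.6 in May (-1.06, adjusted p = 0.0708), and KLK11, a serine protease of the epidermis, with 120 and 114, against 189 and 237 in May (-0.85, adjusted p = 0.104). The death receptor gene TNFRSF25 (4.03 and 3.46, against 6.63 and 8.59 in May), the transcription factor gene PITX3 (5.9 and 7.67, against 15.0 and 12.3 in May) and NINL (5.08 and 5.27, against 9.35 and 10.9 in May) had adjusted p = 0.111, 0.116 and 0.129. C3 gained a call in 4 alternatives, COL7A1 in 3 and APOD in 1.

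The hair shaft genes tested showed no call. Of the lists, 8 of 17 shaft keratins and 4 of 29 keratin-associated proteins were in the files by name, so the others were not seen. The shaft keratins, which fill the growing fibre, had a median difference of 0.11 in 8 genes, or -0.07 with equal library sums. KRT35, the most abundant, had 594 and 481 in September and 553 and 481 in May (0.05, SE 0.443, adjusted p = 0.986), and KRT39 had 201 and 211, against 146 and 148 in May (0.48, adjusted p = 0.692). KRT35 overlapped between the months and KRT39 did not. The 4 keratin-associated proteins, which cross-link the keratin filaments, had a median of 0.81, or 0.38 with quantile normalization, and none was called. Both September libraries were above both May libraries in 3 of the 4, against 25.5% of all genes, and 3 of 4 stayed above 0 with equal library sums and with quantile normalization. KRTAP11-1 had 5426 and 5999 in September, against 3334 and 3143 in May (0.82, SE 0.476, adjusted p = 0.605), but ran from 1960 to 7043 in the other months. KRTAP3-1 had 1346 and 1610, against 844 and 852 in May (0.80, SE 0.26, adjusted p = 0.401), and KAP8 had 3772 and 3474, against 2969 and 4052 in May (0.06, adjusted p = 0.988).

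The keratins of the inner root sheath, the rigid sleeve that moulds the shaft, lay below 0 in 4 of 4 genes under each of the 3 other scalings too, by small amounts with large errors. Among these scalings, equal library sums also lowered the median of all tested genes, to -0.1575. KRT27 had 5864 and 4832 in September, against 7064 and 5707 in May (-0.25, SE 0.57, adjusted p = 0.923), and KRT25 had 6250.1 and 5209, against 7416 and 5801 in May (-0.20, SE 0.5275, adjusted p = 0.939). The trichohyalin gene TCHH had 5982 and 5889 in September and 5998 and 5131 in May (0.10, adjusted p = 0.97). TCHHL1, a relative of trichohyalin, had 291 and 247, against 127 and 165 in May (0.89, adjusted p = 0.334), and CDSN, the adhesion protein corneodesmosin, had 367 and 280.4, against 573 and 456 in May (-0.67, adjusted p = 0.477). Of 11 sheath genes tested none passed. TCHHL1 was the only one higher in September without overlap, against 25.5% of all genes. Lower without overlap were 4 of the 11, against 26.5% of all genes.

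Of 35 epidermal and outer root sheath genes 22 lay below 0, with a median of -0.09, and none passed. The roles differed: 9 of 11 keratins lay below 0 (median -0.33), as did 7 of 10 cornified envelope genes and 5 of 8 kallikrein and inhibitor genes. The S100 genes ran the other way, with 5 of 6 above 0 and a median of 0.54. The basal keratin KRT5 had 6500.4 and 6231 in September, against 7681 and 8334 in May (-0.33, adjusted p = 0.785). KRT79, a keratin of the sebaceous and infundibular ducts, had 226 and 153, against 353 and 404 in May (-1.02, adjusted p = 0.425), and LOR, the cornified envelope protein loricrin, had 51.4 and 29.7, against 113 and 112 in May (-1.51, SE 0.42, adjusted p = 0.316). KRT4, a keratin of wet epithelia, had 17.7 and 10.9, against 2.27 and 6.91 in May (1.55, adjusted p = 0.305). The S100 proteins S100A8 (18.3 and 45.7 in September, 15.3 and 9.68 in May) and S100A9 (17.1 and 47.4 in September, 15.98 and 12.8 in May), neutrophil and stressed-keratinocyte proteins, were highest in the September male. S100A7A had 384 and 292, against 132 and 296 in May (0.76, adjusted p = 0.69), and at most 21.1 in any other month, so that it was high in all 4 anagen libraries and its groups overlapped.

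Regulators of the hair matrix had a median of 0.14 in 23 genes (-0.04 with equal library sums). HOXC13, which drives hair keratin genes, had 132 and 143 in September, against 107 and 92.7 in May (0.46, SE 0.285, adjusted p = 0.628), and LEF1, the nuclear partner of beta-catenin, had 61.6 and 58.8, against 52.7 and 44.9 in May (0.30, adjusted p = 0.531). The protease CTSV had 885 and 593 in September and 796 and 722 in May (-0.07, adjusted p = 0.964). HOXC13 and LEF1 were higher in September without overlap; CTSV overlapped. Dermal papilla and sheath genes had a median of 0.08 in 31 genes (-0.08 with equal library sums). CRABP1, a retinoic acid-binding protein of the papilla, had 25.9 and 40.4, against 13.5 and 14.2 in May (1.17, adjusted p = 0.308), and the growth factor gene FGF7 had 8.48 and 11.5, against 5.79 and 4.05 in May (0.89, adjusted p = 0.43). The most abundant papilla gene, SFRP1, had 109 and 113 in September and 114 and 92.0 in May (0.11, adjusted p = 0.883).

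Bulge and hair germ genes, which mark the stem cells, had a median of -0.15 in 26 genes, with 19 below 0. LHX2, a transcription factor of these cells, had 32.1 and 26.7 in September, against 44.8 and 36.2 in May (-0.45, SE 0.228, adjusted p = 0.554). LRIG1 had 59.4 and 46.5, against 70.7 and 74.7 in May (-0.46, adjusted p = 0.423), whereas KRT19, also a glandular and ductal keratin, had 291 and 280.2, against 189 and 111 in May (0.97, adjusted p = 0.354). POSTN, the most abundant, had 539 and 482 in September and 527 and 711 in May (-0.26, adjusted p = 0.816).

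Signalling genes gave no call in either direction, the pathways differing in which way most members leaned. In Wnt signalling, which starts and sustains anagen, 14 of 16 ligand and secretion genes lay below 0 with a median of -0.22. With equal library sums 15 of 16 did so, but the median of all tested genes also fell to -0.1575. WNT10B had 6.53 and 4.61 in September and 8.53 and 4.83 in May (-0.20, adjusted p = 0.881), WNT4 had 5.5 and 4.74, against 7.5 and 8.89 in May (-0.59, adjusted p = 0.547), and WNT16 had the highest difference of the ligands, at 1.52 and 2.63, against 0.91 and 1.22 in May. The beta-catenin gene CTNNB1 had 471 and 400.3, against 499 and 505 in May (-0.21, adjusted p = 0.813). Among inhibitors, SFRP5 had 48.5 and 54.9, against 29.7 and 17.9 in May (1.13, SE 0.38, adjusted p = 0.401).

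In Notch signalling, which separates the shaft and sheath lineages, all 4 ligands and all 4 receptors tested were lower in September without overlap, against the 26.5% of all genes. Under each scaling the 8 lay below 0, though equal library sums also lowered the median of all tested genes to -0.1575. None of the 8 was called. The ligand gene DLL1 had 13.1 and 10.5, against 19.1 and 18.9 in May (-0.65, adjusted p = 0.395), JAG1 had 90.2 and 89.8, against 103 and 93.6 in May (-0.13, adjusted p = 0.863), and the receptor NOTCH3 had 50.4 and 36.3, against 65.0 and 59.0 in May (-0.52, adjusted p = 0.483). Of the 12 effector and target genes, 7 lay below 0, 5 of them without overlap, and 5 above, 4 of them without overlap, with a median of -0.04. Among those above, HES1 had 69.2 and 80.2, against 57.9 and 56.6 in May (0.37, adjusted p = 0.489), and NRARP had 70.9 and 68.8, against 52.8 and 49.0 in May (0.45, adjusted p = 0.418).

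Hedgehog genes had a median of -0.14 in 16. The ligand SHH, made by the matrix, had 3.38 and 4.05 in September and 3.8 and 2.56 in May (0.19, adjusted p = 0.806), and the co-receptor GAS1 had 75.9 and 56.4 in September and 72.6 and 70.9 in May (-0.13, adjusted p = 0.836). BMP and TGF-beta genes had a median of 0.05 in 42 (-0.11 with equal library sums). BMP2 had 24.3 and 23.9 in September and 22.2 and 18.3 in May (0.25, adjusted p = 0.758), BMP4 41.5 and 38.5 in September and 36.4 and 38.3 in May (0.09, adjusted p = 0.877), and the BMP target ID3 249 and 273 in September, against 147 and 112 in May (1.01, SE 0.312, adjusted p = 0.375). FGF5, which ends anagen, had 3.12 and 4.19 in September and 4.28 and 3.41 in May (-0.06, SE 0.525, adjusted p = 0.986). IGFBP7 had 318 and 376, against 298 and 276 in May (0.27, adjusted p = 0.71). The prolactin receptor PRLR had 49.2 and 44.3, against 57.7 and 62.9 in May (-0.36, adjusted p = 0.647), the vitamin D receptor VDR 79.9 and 84.8 in September and 93.0 and 76.6 in May (-0.04, adjusted p = 0.97), and the clock gene RORA 60.2 and 64.0 in September, against 66.4 and 86.9 in May (-0.29, adjusted p = 0.685).

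Cell division genes gave no call. Of 30 mitosis genes 25 lay above 0 with a median of 0.135 (14 of 30 and -0.03 with equal library sums), and of 30 replication genes 24 did with a median of 0.07 (9 of 30 and -0.09 with equal library sums). TOP2A, which untangles DNA, had 55.5 and 67.3, against 45.3 and 47.6 in May (0.39, SE 0.201, adjusted p = 0.558). MKI67, the proliferation marker, leaned the other way, with 11.4 and 11.6, against 13.6 and 14.1 in May (-0.25, SE 0.167, adjusted p = 0.653). The replication helicase gene MCM7 had 70.3 and 64.5 in September and 71.7 and 68.4 in May (-0.06, adjusted p = 0.928).

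**Figure D5:**
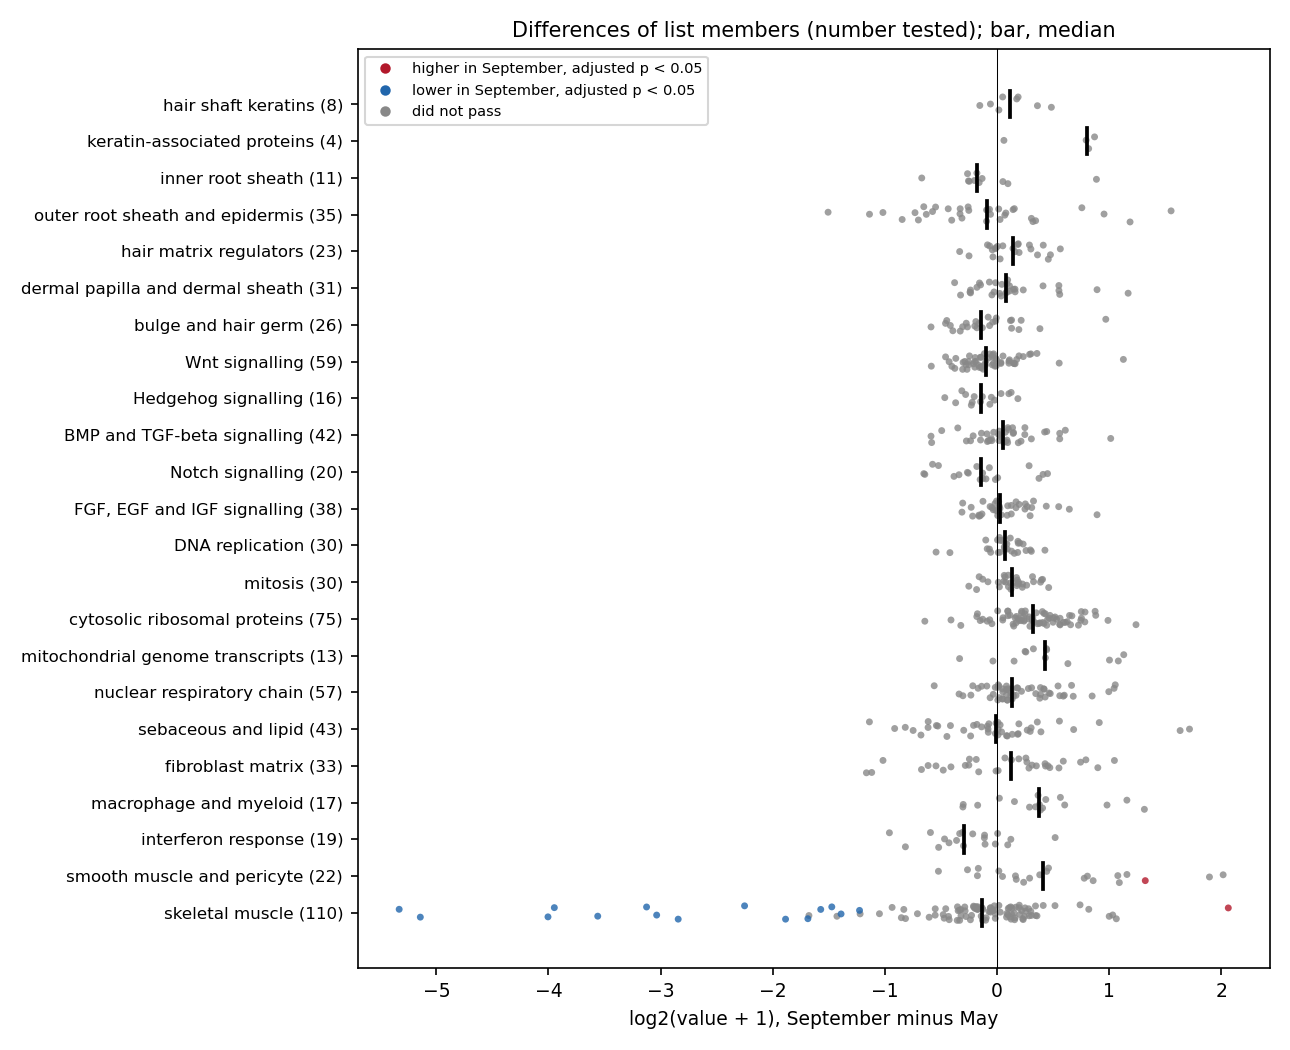
Log2(value + 1) difference of September minus May for each tested member of 23 gene lists (grey, not passed; red and blue, higher and lower in September at adjusted p under 0.05), with black bars for the list medians. Coloured points appear in the skeletal muscle and smooth muscle lists alone. Equal library sums lowered the median of all tested genes to -0.1575. Under them the bars of the shaft keratins, matrix regulators, dermal papilla, BMP, FGF, replication, mitosis, respiratory chain and fibroblast lists turn below 0, and with quantile normalization that of the ribosomal proteins.

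Translation and respiration genes leaned higher without a call. Of 75 cytosolic ribosomal protein genes 65 lay above 0 and 57 were higher without overlap, against 25.5% of all genes. Their median was 0.32, which turned to -0.13 with quantile normalization and was 0.14 with equal library sums. RPL38 had 1880.0 and 2413, against 1079 and 1066 in May (0.99, adjusted p = 0.28), and RPS29 had 22482 and 35225, against 13933 and 10193 in May (1.24, SE 0.609, adjusted p = 0.538). The ribosome assembly factor NPM1 had 618 and 728, against 539 and 511 in May (0.35, adjusted p = 0.584). The 13 protein-coding transcripts of the mitochondrial genome had a median of 0.43, or 0.25 with equal library sums and 0.10 with quantile normalization, with COX2 at 4669 and 7206, against 2602 and 2698 in May (1.13, adjusted p = 0.457). Nuclear respiratory chain genes had a median of 0.13 in 57 (-0.05 with equal library sums), with ATP5E at 1645 and 2145, against 983 and 843 in May (1.04, adjusted p = 0.401). The glycolytic gene GAPDH had 659 and 759, against 560 and 580 in May (0.31, adjusted p = 0.587). The September libraries also had the larger sums, and the part of the sums in these values was not tested.

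Connective tissue genes split by kind. Of 10 collagens, 9 lay below 0 with a median of -0.48. COL1A1 had 173 and 214 in September, against 396 and 473 in May (-1.16, SE 0.65, adjusted p = 0.587), COL1A2 had 259 and 237, against 515 and 563 in May (-1.12, adjusted p = 0.613), and COL3A1 had 225 and 238, against 462 and 476 in May (-1.02, adjusted p = 0.614). Of 14 other matrix genes, 12 lay above 0 with a median of 0.43, among them the proteoglycans DCN, with 312 and 392, against 231 and 176 in May (0.79, SE 0.19, adjusted p = 0.244), and LUM, with 91.3 and 98.3, against 64.4 and 39.3 in May (0.90, adjusted p = 0.425), and the elastic fibre protein FBLN1, with 85.2 and 90.6, against 58.3 and 46.4 in May (0.75, adjusted p = 0.195). SPARC, a collagen-binding protein, had 621 and 774, against 856 and 791 in May (-0.25, adjusted p = 0.823). Both medians kept their signs with equal library sums and with quantile normalization, and no gene passed.

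Outside smooth muscle, genes of other cell types gave no call, except that C1QA was called without the September female. Macrophage genes had a median of 0.38 in 17, led by the complement subunits C1QB (3.46 and 5.82, against 1.63 and 0.87 in May; 1.31, adjusted p = 0.152) and C1QC (4.86 and 7.32, against 2.52 and 1.78 in May; 1.16, adjusted p = 0.116), while CD74 had 71.9 and 83.3, against 70.1 and 51.0 in May (0.37, adjusted p = 0.787). The myeloid markers CD68, CD14, CSF1R and TYROBP summed to 27.4 and 35.2 in September and 31.2 and 31.5 in May, so their sums overlapped. Interferon response genes had a median of -0.30 in 19. Of these, IFI6 had 57.4 and 64.9, against 173 and 67.7 in May, the May female being high (-0.82, adjusted p = 0.543). GZMA of cytotoxic lymphocytes had 17.5 and 18.2 in September and 15.3 and 17.6 in May, EGFL7 of endothelium 34.1 and 36.2, against 44.6 and 36.6 in May, ERBB3 of Schwann cells and keratinocytes 117 and 99.6, against 124 and 145 in May, ASIP, the agouti pigment signal, 260.4 and 246, against 242 and 240 in May, and DGAT2, a triglyceride enzyme, 62.2 and 58.0 in September and 51.9 and 68.3 in May, with adjusted p between 0.501 and 0.991. Sebaceous and lipid genes had a median of -0.01 in 43: the desaturase SCD had 256 and 503, against 105 and 126 in May (1.63, SE 0.456, adjusted p = 0.311), and the lipid droplet coat PLIN2 253 and 250.2, against 366 and 445 in May (-0.68, adjusted p = 0.308). MUCL1, a secreted mucin-like protein of glands, had 3.12 and 13.4 in September and was listed at 0 in both May libraries (adjusted p = 0.239), and KRT77, a sweat duct keratin, had 107 and 70.6, against 151 and 245 in May (-1.14, adjusted p = 0.425). The chaperone HSPA8 had 672 and 968, against 633 and 409 in May (0.66, adjusted p = 0.48), and the survival factor MCL1 had 144 and 168 in September and 156 and 142 in May (0.06, adjusted p = 0.923).

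September and May were also each set against the mean of the other 4 months. September differed in 42 genes (0.261%), 26 higher and 16 lower, and May in 3972 (24.7%), 2088 higher and 1884 lower. At an unadjusted p under 0.05 the shares were 29.2% for September and 40.2% for May. Scaling moved the split of higher to lower, to 45 and 16 with median-of-ratios scaling and 29 and 67 with equal library sums for September, and to 2176 and 1277 with equal library sums for May. Single libraries decided both counts. The September count was 4 without the September female, 5 without the September male, 16 without the May female or the May male, 941 without the November female, 26 and 23 without the December female and male, 18 without the February male, and 1095 and 3420 without the March female and male. The May count was 120 without the May female and 29 without the May male. The 2 contrasts share 8 libraries.

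Whether males and females changed alike was tested with an interaction term. The change of September minus May differed between the sexes in no gene at adjusted p under 0.05 in limma, with 243 genes (1.51%) at an unadjusted p under 0.05. September and May had their own sex terms, so the error came from the other months alone. There the sexes differed with an SD of 0.3463 (December) to 0.5585 (March), against 0.3281 in September and 0.3364 in May. The lack of calls therefore does not show that the sexes changed alike. The 15 skeletal muscle genes fell in 2 of 2 sexes, which had to follow, since both September libraries lay below both May libraries. TNNC2 differed by -5.46 in the females and -5.20 in the males, and CKM by -3.38 in the females and -2.87 in the males. ACTA2 differed by 1.18 in the females and 1.46 in the males, and LOC102168680 by 5.25 in the females and 5.69 in the males. With 1 library per sex and month, a sex difference and a difference between libraries cannot be told apart.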

How the data were processed

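The authors deposited 1 text table per library with a signal value per gene under a heading of TPM. Library sums from 904623 to 1127797 show that these deposited signal values had been rescaled by steps not given in the sources used here. The submitters' processing notes name kallisto 0.46.1, a pseudoaligner, and sleuth 0.30.0, a tool for its output; the genome build is not given in the sources used here. The depth is unknown, so no counting interval is given. Symbols were taken from RefSeq (ARS1.2) by gene number for 20294 genes; 32 did not match. At most 1.55% of tested genes had equal values in any 2 libraries.

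Values were taken as log2(value + 1), and a gene was kept for testing where 2 or more libraries had a value of 1 or above. A linear model with 1 group per month was fitted to all 12 libraries in limma 3.58.1 (R 4.3.3) with a mean-variance trend, with Benjamini-Hochberg adjustment over the kept genes. On simulated data for September against May with 16095 genes, 57% of 100 genes changed by a log2 of 1 and 93% of 100 changed by 2 were recovered, with 3 false calls. The simulation used independent normal noise, a common mean for the other months and changed genes picked at random from all tested genes. Both sets of 100 were changed in the same fit. The Benjamini-Hochberg cut eases as more genes pass, and in the data 22 were called, so the recovered shares may be too high. These shares need not hold for the follicle genes. The members and gene lists were chosen with earlier results of these data known. Lists are described by counts and medians, without a set test.

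Named genes were, outside the muscle list and LOC numbers, up to 12 called per direction with a mean of at least 5 and no overlap, or the 5 with the smallest p where fewer than 5 passed; the 3 most abundant per muscle role; fixed follicle genes; and per list the most abundant called members or the most abundant member. The other genes named, among them PIGY, the LOC genes and the called muscle genes outside that rule, were chosen after their values were seen. Alternatives were other added constants, no filter, 3 other scalings, no trend, the replicate number as a block, other error libraries and each library left out. "Equal library sums" means scaling to an equal sum over genes outside the skeletal muscle list and the mitochondrial genome. Promoter sequences were not used here. KRT15 is not analysed here.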

Additional observations from a re-analysis of the deposited data

How the results depend on the processing

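September against May gave 22 called genes, and 12 with an added constant of 0.1; leaving out 1 library gave 11 (without the September male) to 33 (without the March female or the March male), with 12 without the May male or the September female. With the replicate block, that is the sex, the count was 21, and 3 of the 22 calls were lost. The female minus male differences correlated between months from -0.255 to 0.4419 and at 0.1215 between September and May, so the numbers were not taken to pair libraries. The skeletal muscle genes called lower numbered 15, but 6 with a constant of 0.1, 7 with the error from the 4 libraries, 7 to 15 with 1 library left out and 13 with the replicate block. Outside that list 1 listed gene was called, 0 with equal library sums, 3 with the error from anagen and catagen months and 0 to 3 with 1 library left out. September against the other 4 months gave 42, but 65 with quantile normalization, 96 with equal library sums, 19 without the trend and 4 to 3420 with 1 library left out; May against them gave 3972, and 29 to 5629 with 1 library left out. The causes were not tested. The sex interaction gave 0 under each of the 6 alternatives run for it; it was not run with the block, since sex is in that fit, nor with libraries left out.

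Of the genes named in the text, these uncalled ones changed sign. Equal library sums also lowered the median of all tested genes, to -0.1575. With equal library sums the log2 differences were -0.0023 for MYL6B, -0.0264 for TPM3, -0.047 for FBXO32, -0.0797 for ASPH, -0.0707 for CHRNE, -0.018 for LDHB, -0.0812 for BMP4, -0.1301 for KRT35, -0.0677 for SFRP1, -0.1093 for ASIP, -0.0589 for GZMA, -0.165 for DGAT2, -0.1157 for MCL1, -0.1189 for KAP8, -0.1042 for MYOCD, -0.1599 for SMTN, -0.0833 for TCHH, -0.1405 for TNNI1 and -0.0538 for TNNT1. With quantile normalization they were -0.0828 for KRT35, -0.0893 for ASIP, -0.061 for DGAT2, -0.0602 for MCL1, -0.4981 for KAP8, -0.003 for SMTN and -0.3295 for TCHH. With 1 library left out they ran from -0.1279 to 0.462 for MYL6B, -0.023 to 0.2161 for ASPH, -0.1071 to 0.2818 for CHRNE, -0.0294 to 0.4017 for SHH, -0.228 to 0.1051 for FGF5, -0.5522 to 0.1568 for WNT10B, -0.1022 to 0.2027 for KRT35, -0.3545 to 0.2233 for CTSV, -0.041 to 0.2635 for SFRP1, -0.3411 to 0.0796 for GAS1, -0.1179 to 0.0052 for MCM7, -0.1746 to 0.1025 for VDR, -0.1826 to 0.2079 for DGAT2, -0.0445 to 0.1721 for MCL1, -0.1624 to 0.2859 for KAP8, -0.0312 to 0.1292 for MYOCD, -0.1677 to 0.2006 for SMTN, -0.0152 to 0.2099 for TCHH, -0.0623 to 0.0963 for TNNI1 and -0.2338 to 0.4649 for TNNT1. Differences below a log2 of 1 were not simulated, and the depth is unknown.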

Other observations

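Several of the most abundant transcripts differed by a log2 of 1 or more between September and May without passing the test. The following genes were chosen after their values were seen, for this difference and a mean of at least 1000 over the 4 libraries. They are described without a test. 19 genes were higher in September, 15 of them known by LOC numbers, and 3 were lower, all with LOC numbers. For all 22 the groups did not overlap, where of all genes 25.5% were higher and 26.5% lower without overlap. None of the 22 was called in limma (smallest adjusted p = 0.0601 among the 19 and 0.225 among the 3). Together the 19 held 9.28% and 11.6% of the summed signal in the September female and male, against 2.8% and 2.84% in the May female and male. In the other months they held 6.17% and 6.82% (November), 7.75% and 6.57% (December), 10.1% and 8.09% (February) and 12% and 6.33% (March). The 3 held 3.13% and 1.91% in September, against 8.68% and 7.65% in May. As the genes were chosen for their difference, the gap between September and May in these shares follows from that choice.

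In RefSeq ARS1.2, 8 of the 19 lie on chromosome 18 between WTIP and ZNF181, and LOC102184404 lies on chromosome 5 next to MUCL1. LOC102184404 had 4900 and 10596 in September, against 54.2 and 335 in May (log2 difference 5.73, SE 0.915), and between 2987 and 23761 in the other 8 libraries. LOC108634769, one of the 3, had 14062 and 10425 in September, against 44055 and 36234 in May (-1.72). Among less abundant genes, the carbonic anhydrase CA4 had 35.1 and 39.8 in September, against 5.38 and 6.98 in May (2.43, adjusted p = 0.418, or 0.0158 with the error taken from the 4 libraries alone), and AQP8, a water channel, had 14.2 and 9.7, against 2.4 and 2.53 in May (1.88).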
